A study of Mus musculus with 20 samples.

Results

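The transcription factor gene Bcl6 was deleted in mice with Cd8cre, a Cre recombinase expressed from Cd8 regulatory sequences, and the T cells of the gut lining were read by bulk RNA-seq. The cells were CD8αα+ αβ intraepithelial lymphocytes (IELs) sorted from small intestine at steady state. Knockout mice were Bcl6fl/fl Cd8cre and the controls were Bcl6fl/fl littermates, so all mice carried floxed Bcl6 alleles and Cd8cre was present only in knockouts. An effect of Cd8cre itself and the loss of Bcl6 cannot be told apart. The comparison used 4 of the 20 libraries of the series, 2 knockout and 2 littermate libraries, and tested the 9573 of 13766 listed genes that reached 1 FPKM (fragments per kilobase of gene, scaled to sequencing depth) in at least 2 libraries. Age, sex and strain of the mice were not given in the sources used here. Nothing in the labels says that the 2 libraries of a group came from separate mice, so p-values measure only the spread between these samples. In bulk RNA, fewer cells of a type and less RNA per cell cannot be told apart. Side by side with this deletion stood the same design for Prdm1 and Tcf7 (Prdm1fl/fl Cd8cre and Tcf7fl/fl Cd8cre against floxed littermates, 2 libraries per group) and a sort of RFP+ CD160+ against RFP- CD160- IELs from Bcl6RFP reporter mice (3 libraries per group).

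BCL6 is a zinc-finger repressor that recruits corepressors to DNA, and it is known best for its need in germinal centre B cells and follicular helper T cells. It and BLIMP1, the product of Prdm1, repress each other's genes in many lymphocytes. CD8αα+ IELs lie between the epithelial cells of the gut, carry granzymes and NK receptors, and keep a resident, partly activated state. The DNA site of BCL6 resembles that of STAT factors.

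The libraries held 22125635 to 23004047 reads, as recovered from the FPKM steps. The sorted cells showed T cell and CD8α transcripts: Cd8a stood at 593 and 608 FPKM in littermates and at 632 and 531 FPKM in knockouts, and Cd3e at 193 and 213 against 205 and 216 FPKM. Cd8b1, the CD8β gene, lay between 1.51 and 2.16 FPKM, and only 2 of 15 gamma-delta T cell genes were in the table, both under 0.6 FPKM. Most names on that list are receptor segments, some under 2 names, so their absence does not measure gamma-delta cells. Littermate 2 stood apart at the low end. It listed 10 genes at 0, against 257 to 434 in the other libraries, and it was the highest library for 65.7% of the 2314 genes with a mean under 0.2 FPKM, against 17.0% of the 9488 genes averaging 1 FPKM or more. Knockout 2 stood apart in myeloid genes, described with the other cell types. Bcl6 itself (chr16:23965052-23988852, minus strand) was low in all 4 libraries. It stood at 0.772 and 0.735 FPKM in littermates (119 and 109 reads) and at 0.550 and 0.638 FPKM in knockouts (83 and 97 reads). Both knockout values lay below both littermate values, but the gene missed the 1 FPKM filter, and edgeR on the recovered reads of 13324 genes, with no FPKM filter, gave a log2 difference of -0.35 (adjusted p = 0.963). Whole-gene values include any exon that the floxed allele leaves in place, so this check of the labels is weak.

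Of the 9573 genes, 37 fell in the knockout (0.387%) and 3 rose (0.0313%), together 0.418%, at a Benjamini-Hochberg adjusted p under 0.05 by limma on log2(FPKM + 1). At an unadjusted p under 0.05 there were 559 genes, 5.84%. All differences below are knockout minus littermate on the log2(FPKM + 1) scale, which understates changes of low genes, and the median over all genes tested was 0.03. The genes that fell included chaperones, immediate-early and T cell receptor (TCR)-induced genes, Id3 and Ltb of the stem-like list, and antimicrobial genes of Paneth cells, and 13 of the 40 called genes were in no list. For all 40 the knockout and littermate values did not overlap. Clps, Reg4, Ly6d and Arhgap31 passed the filter through 1 group only, so for them overlap was not possible. Over all genes tested, both knockout libraries lay below both littermates for 14% and above both for 19%. The number of calls depended on the libraries: it was 40 without littermate 1, 55 without littermate 2, 1570 without knockout 1 and 198 without knockout 2, where the lone library left in a group is assumed to vary like the other group.

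**Figure D1:**
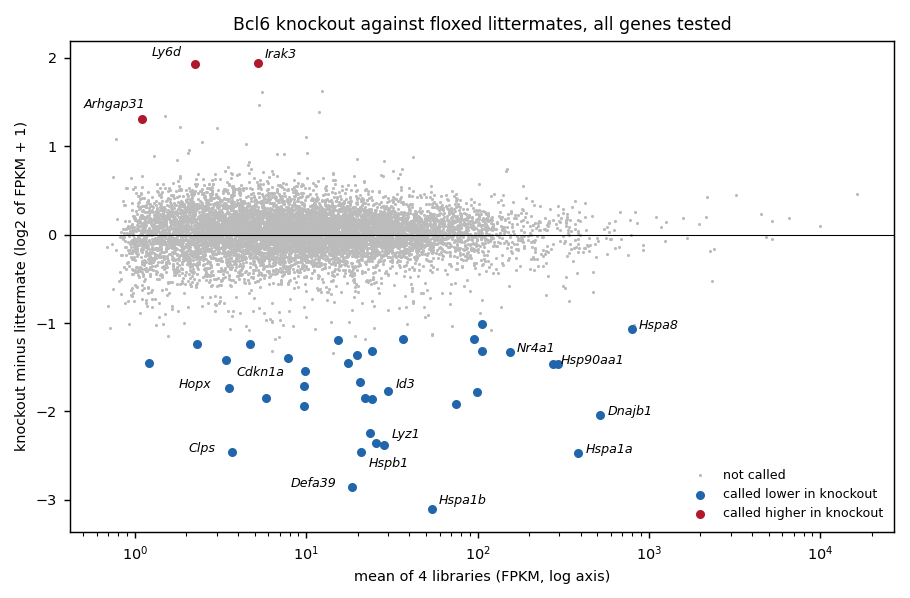
Difference between Bcl6 knockout and littermate libraries (log2 of FPKM + 1, y axis) against the mean of the 4 libraries (FPKM, log axis) for the 9573 genes tested. Blue points mark the 37 genes called lower, red points the 3 called higher and grey points all others, and the called genes lie beyond 1 log2 unit from 0.

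Heat-shock genes made up 9 of the 37 genes that fell. Chaperones hold and refold damaged proteins, and many are switched on by heat-shock factors, which bind repeated GAA units in alternating orientation. Of 33 heat-shock genes listed and tested, 9 fell and none rose. In 23 both knockouts lay below both littermates, against 14% of all genes tested, and the median difference was -0.60. That median ran from -0.66 to -0.56 with a library left out. The 300-base promoters of 5 of the genes that fell are shown because they carry the heat-shock unit pairs, GAANNTTC or TTCNNGAA, in capitals. They are RefSeq windows on GRCm38.p6, 5′ to 3′, at chr17:34959189-34959488 (minus strand, Hspa1b), chr17:34972107-34972406 (minus, Hspa1a), chr5:135887669-135887968 (plus, Hspb1), chr5:149636287-149636586 (minus, Hsph1) and chr1:55087898-55088197 (plus, Hspe1).
Hspa1b: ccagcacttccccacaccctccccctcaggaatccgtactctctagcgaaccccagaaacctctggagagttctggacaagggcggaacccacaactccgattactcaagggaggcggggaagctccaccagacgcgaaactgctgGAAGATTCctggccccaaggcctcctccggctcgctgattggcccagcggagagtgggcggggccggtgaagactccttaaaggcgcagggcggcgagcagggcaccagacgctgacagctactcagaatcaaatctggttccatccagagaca
Hspa1a: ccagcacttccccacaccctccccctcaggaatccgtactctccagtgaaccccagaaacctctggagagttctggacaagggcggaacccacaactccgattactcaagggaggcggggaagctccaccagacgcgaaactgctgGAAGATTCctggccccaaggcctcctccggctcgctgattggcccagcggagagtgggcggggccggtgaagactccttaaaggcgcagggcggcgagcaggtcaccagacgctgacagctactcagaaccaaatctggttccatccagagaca
Hspb1: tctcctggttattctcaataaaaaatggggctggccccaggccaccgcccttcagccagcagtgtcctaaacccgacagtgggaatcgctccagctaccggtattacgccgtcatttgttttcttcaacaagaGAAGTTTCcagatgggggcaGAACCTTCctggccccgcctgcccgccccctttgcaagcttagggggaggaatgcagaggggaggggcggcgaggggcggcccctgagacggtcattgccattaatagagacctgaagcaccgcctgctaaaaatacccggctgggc
Hsph1: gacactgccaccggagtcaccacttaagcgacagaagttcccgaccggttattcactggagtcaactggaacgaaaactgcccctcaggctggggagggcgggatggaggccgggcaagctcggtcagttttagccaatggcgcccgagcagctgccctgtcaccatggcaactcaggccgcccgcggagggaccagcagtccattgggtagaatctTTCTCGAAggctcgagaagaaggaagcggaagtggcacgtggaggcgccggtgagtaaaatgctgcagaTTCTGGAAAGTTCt
Hspe1: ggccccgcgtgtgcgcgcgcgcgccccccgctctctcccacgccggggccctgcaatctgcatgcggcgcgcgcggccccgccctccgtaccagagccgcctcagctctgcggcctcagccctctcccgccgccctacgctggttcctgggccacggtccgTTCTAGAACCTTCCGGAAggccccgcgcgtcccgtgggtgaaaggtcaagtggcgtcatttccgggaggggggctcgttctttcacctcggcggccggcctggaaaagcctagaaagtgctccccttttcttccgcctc
Each pair reads the same on both strands, and the 2 forms can share a GAA unit. Promoter windows, 250 bases before to 50 after the start, were found for 28 of the 40 called genes. GAANNTTC was in 6 of the 7 called heat-shock genes with a window, in Jun alone among the 21 other called genes with a window, and in 2442 of 27025 genes overall (9.04%). TTCNNGAA was in 2 of those 7, Hsph1 and Hspe1, and in 2594 of 27025 genes (9.6%). Dnajb1 held neither form in its windows. The share among heat-shock genes that were not called was not counted, so a link between these sites and the fall was not tested. The windows of Hspa1b and Hspa1a are the same at 296 of 300 bases, and reads of these near-identical HSP70 genes can be split between them in counting, so their separate values are uncertain.

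Hspa1b, an inducible HSP70, stood at 98.6 and 96.2 FPKM in littermates and at 12.8 and 8.49 FPKM in knockouts. Its difference was -3.11 ± 0.20 (SE, 95% interval -3.56 to -2.65, adjusted p = 0.000528), the lowest of all genes tested on this scale, although Clps and Reg4, described with the other cell types, lay lower with a pseudocount of 0.1 (-4.09 and -3.39, against -3.21 for Hspa1b). Hspa1a, the neighbouring copy, stood at 616 and 691 against 128 and 106 FPKM (-2.47 ± 0.17, adjusted p = 0.000579). In both genes the groups were far apart and the knockouts close to each other. The HSP40 gene Dnajb1, which feeds clients to HSP70, stood at 814 and 863 FPKM in littermates and at 204 and 202 FPKM in knockouts (-2.04 ± 0.16, adjusted p = 0.00121). Hspb1, a small heat-shock protein that holds unfolded clients, was at 37.8 and 34.5 against 6.97 and 4.70 FPKM (-2.46 ± 0.20, adjusted p = 0.00124). Littermate libraries were close to each other and no knockout value came near them.

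Nucleotide exchange and HSP90 genes fell as well. Hsph1, an HSP110 exchange factor, stood at 169 and 140 against 40.6 and 47.8 FPKM (-1.78). Bag3, a cochaperone of HSP70, stood at 8.42 and 10.9 against 1.90 and 1.98 FPKM (-1.85). Hsp90aa1, the inducible HSP90, stood at 425 and 386 against 144 and 147 FPKM (-1.47, adjusted p = 0.0054). In these 3 genes every knockout library lay under every littermate library. The constitutive HSP70 gene Hspa8 stood at 1049 and 1096 against 529 and 494 FPKM (-1.07 ± 0.17, adjusted p = 0.0424). The mitochondrial cochaperonin Hspe1 stood at 150 and 117 against 56.6 and 59.2 FPKM (-1.18, adjusted p = 0.0292). Hspa8 and Hspe1 lost their calls in some settings, with adjusted p up to 0.662 and 0.378.

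Other members of the list did not pass the test. Hsp90ab1, the constitutive HSP90, stood at 1115 and 1091 against 584 and 507 FPKM (adjusted p = 0.061). Hsp90ab1 passed in other limma settings, with adjusted p of 0.0444 at a mean FPKM of at least 5, 0.0281 after quantile normalization and 0.0190 in one fit with the RFP libraries, and edgeR gave 0.0631 with the FPKM filter and 0.0388 without it. Hspd1, the partner of Hspe1, stood at 183 and 145 against 68.9 and 85.1 FPKM (adjusted p = 0.062). Both had knockouts below littermates. Chaperones of the endoplasmic reticulum overlapped between groups: Hspa5 (BiP) stood at 388 and 383 against 362 and 418 FPKM, and Hsp90b1 (GRP94) at 129 and 106 against 116 and 140 FPKM. Their differences were 0.01 and 0.12. The mitochondrial HSP70 gene Hspa9 was at 32.0 and 28.8 against 30.5 and 27.4 FPKM. Hsf1, the main heat-shock factor, was at 26.8 and 33.2 against 32.9 and 22.2 FPKM, with overlapping groups. The summed level of the 33 genes was 6322 and 6288 FPKM in littermates and 3069 and 3008 FPKM in knockouts, a ratio of 0.482. An exact permutation test over libraries gave p = 0.333, the smallest that 2 against 2 allows.

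**Figure D2:**
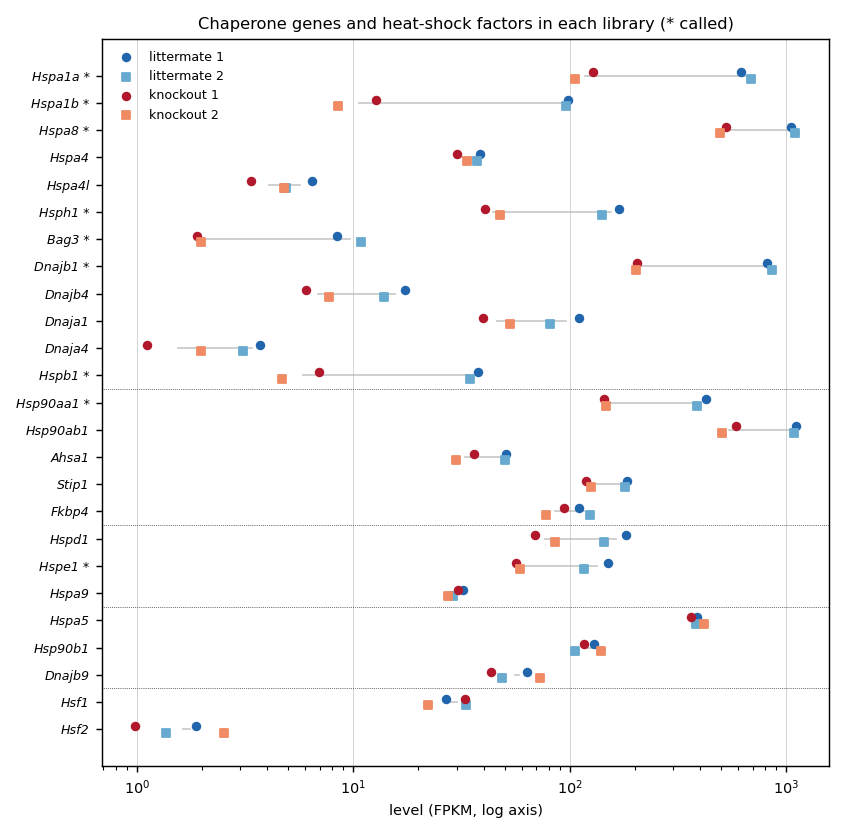
Level of 25 chaperone and heat-shock factor genes in each library (FPKM, log axis), with blue for littermates and red or orange for knockouts, grey lines joining the group means and * marking called genes. Dotted lines part HSP70, HSP40 and small chaperones, HSP90 and cochaperones, mitochondrial, endoplasmic reticulum and heat-shock factor genes, and the groups separate in the top 2 blocks and for Hspd1 and Hspe1, and overlap for Hspa9 and in the last 2 blocks.

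Immediate-early genes, which cells transcribe within minutes of a stimulus, were the second group that fell. Of 27 tested members of the AP-1 and immediate-early list, 4 fell and none rose, and the median difference was -0.41. Leaving out a library moved the median to between -0.47 and -0.43. In 21 of the 27 both knockouts lay below both littermates, against 14% of all genes tested. Jun, an AP-1 subunit, stood at 389 and 476 FPKM in littermates and at 182 and 134 FPKM in knockouts (-1.46 ± 0.20, adjusted p = 0.0197). Fosb, another subunit, stood at 26.2 and 25.8 against 9.61 and 8.15 FPKM (-1.45, adjusted p = 0.00747). No library of one group reached the other group in either gene. Atf3, a stress-induced partner of AP-1, stood at 36.6 and 40.7 against 11.7 and 8.39 FPKM (-1.86, adjusted p = 0.00408). Zfp36, whose product tristetraprolin promotes decay of cytokine mRNAs, stood at 152 and 148 against 70.7 and 50.6 FPKM (-1.31, adjusted p = 0.0256). Jun and Atf3 lost their calls in one fit with the RFP libraries (adjusted p = 0.0886 and 0.0737). Fos at 578 and 573 against 403 and 335 FPKM and Junb at 2649 and 2843 against 2135 and 1714 FPKM did not pass (adjusted p of 0.34 and 0.78). Dusp5 was the one member with both knockouts above both littermates, at 41.8 and 52.9 against 33.9 and 30.6 FPKM. The AP-1 site TGACTCA, or TGAGTCA on the other strand, was in 2 of the 28 called promoters, those of Bag3 and Ctla2a, and in 1607 of 27025 genes (5.95%).

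TCR-induced factors had the same direction with 1 call. Of 15 tested genes of the Nr4a and Egr list, only Nr4a1 fell, and the median was -0.54. In 10 members both knockouts lay below both littermates, against 14% of all genes tested. The median was -0.66 without knockout 1 and -0.43 without knockout 2. Nr4a1 encodes NUR77, an orphan nuclear receptor that reports TCR signal strength, and stood at 208 and 234 against 96.3 and 79.0 FPKM (-1.33 ± 0.17, adjusted p = 0.0137). Egr2 was at 12.4 and 10.7 against 5.87 and 4.42 FPKM, and Irf4 at 5.26 and 5.14 against 1.74 and 2.17 FPKM. Both missed the threshold, with adjusted p of 0.0885 and 0.0622, and both had groups apart. Of genes in neither list, Dusp4, a MAP kinase phosphatase, fell from 3.25 and 3.99 to 1.12 and 0.804 FPKM. Arc, an activity-induced gene best known from neurons, fell from 6.23 and 7.81 to 2.73 and 2.08 FPKM. Dusp4 lost its call in 7 and Arc in 6 of 16 alternative fits. Rgs16, which damps G-protein signalling, stood at 29.9 and 34.1 against 9.82 and 8.85 FPKM (-1.67, adjusted p = 0.00359), with the groups apart. Genes of TCR components and signalling gave no call among 35 tested, with a median of 0.02 (-0.04 to 0.03 with a library left out).

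**Figure D3:**
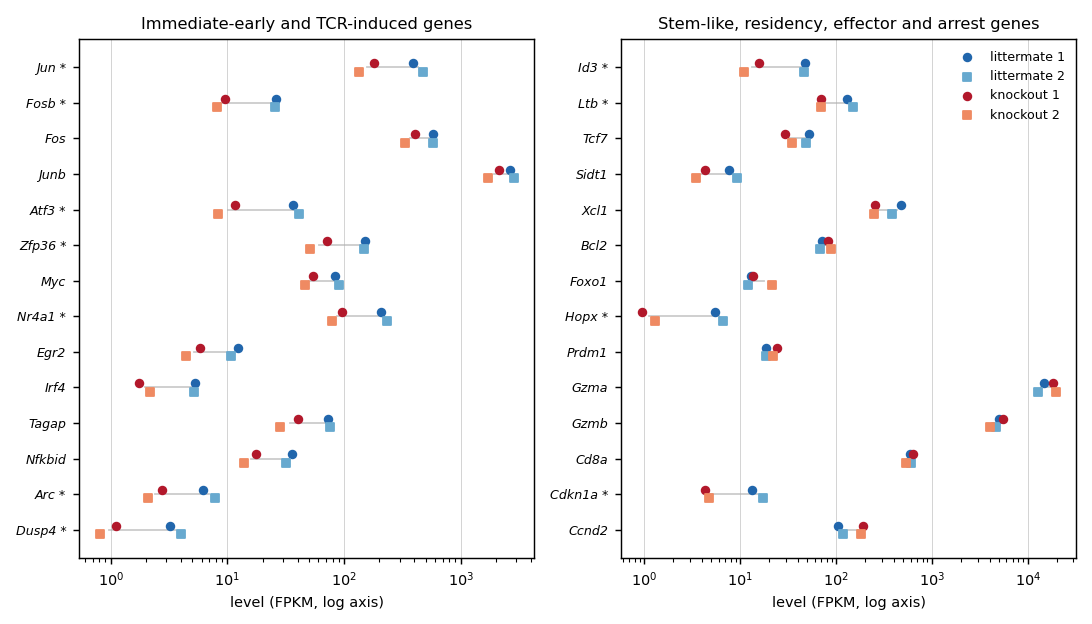
Level of immediate-early and TCR-induced genes (left) and of stem-like, residency, effector and cell arrest genes (right) in each library (FPKM, log axis), with blue for littermates, red or orange for knockouts, grey lines joining the group means and * marking called genes. Jun, Atf3, Nr4a1, Id3 and Hopx show both knockouts below both littermates, whereas Gzmb and Cd8a overlap.

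Id3 and Ltb fell among 20 tested genes of the stem-like and memory list, and none rose. The median of the list was -0.34, and 13 members had both knockouts below both littermates, against 14% of all genes tested. Id3, an inhibitor of E-protein transcription factors in memory and naive T cells, stood at 47.7 and 46.1 FPKM in littermates and at 15.6 and 10.9 FPKM in knockouts. Its difference was -1.77 ± 0.19 (95% interval -2.21 to -1.33, adjusted p = 0.0054). Ltb, the lymphotoxin β gene, was at 132 and 152 against 69.7 and 69.5 FPKM (-1.01, adjusted p = 0.042). Both genes had groups that did not overlap, and Ltb lost its call in 6 of 17 alternative fits. Tcf7, which encodes the TCF1 factor, was at 51.7 and 49.1 against 29.3 and 34.8 FPKM (-0.64, adjusted p = 0.299). Bcl2, a survival gene, was at 72.1 and 68.7 against 82.6 and 89.1 FPKM (0.28, adjusted p = 0.94). Leaving out a library moved the median of this list to between -0.43 and -0.33.

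Among 32 tested residency and gut homing genes, with a median of -0.07 (-0.11 to 0.02 with a library left out), Hopx alone fell. It encodes a homeodomain protein of effector and memory T cells and stood at 5.45 and 6.56 against 0.936 and 1.28 FPKM (-1.73, adjusted p = 0.00678). Itgae, the CD103 gene that anchors IELs to E-cadherin, overlapped between groups at 472 and 525 against 551 and 390 FPKM. The gut homing receptor Ccr9 stood at 22.3 and 22.9 against 17.6 and 13.6 FPKM (adjusted p = 0.691). Other genes that fell were Phlda1 (14.7 and 16.2 against 3.24 and 4.89 FPKM), Kcnk5, a potassium channel (15.1 and 16.5 against 4.81 and 2.33 FPKM), and Gem, a small GTPase (50.3 and 51.8 against 23.9 and 20.3 FPKM). Rgcc, a regulator of cell cycle progression, stood at 40.1 and 29.5 against 12.1 and 14.6 FPKM and Slc2a6, a hexose transporter, at 4.37 and 6.45 against 1.51 and 1.23 FPKM. Ctla2a, a cysteine protease inhibitor, stood at 24.8 and 18.6 against 8.21 and 9.49 FPKM, and Ddit4, a stress-induced inhibitor of mTORC1, at 11.2 and 12.2 against 4.47 and 3.26 FPKM. Ctla2a lost its call in 8 of 17 alternative fits, Rgcc in 5 of 17, Slc2a6 in 6 of 16, Kcnk5 and Ddit4 in 3 of 17 each and Gem in 2 of 17. In none of these 7 genes did the groups overlap, and their differences ran from -1.93 for Kcnk5 to -1.18 for Gem.

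Among genes reported as BCL6 targets in other cells, which a repressor would hold down, 1 of 35 tested fell and none rose. The median was -0.19 (-0.24 to -0.11 with a library left out), and 15 had both knockouts below and 4 both above the littermates. Over all genes tested the shares were 14% below and 19% above. Cdkn1a, the cell cycle inhibitor p21, fell from 13.1 and 17.3 FPKM to 4.29 and 4.77 FPKM (-1.54 ± 0.19, adjusted p = 0.011). Prdm1 stood at 18.5 and 18.5 FPKM in littermates and at 24.5 and 22.0 FPKM in knockouts. Both knockout values were above the littermates, but the difference of 0.31 (95% interval -0.05 to 0.68) did not pass (adjusted p = 0.915). Ccnd2, the cyclin D2 gene, was at 105 and 117 against 190 and 183 FPKM (0.74, adjusted p = 0.144). Myc was at 83.5 and 90.7 against 54.6 and 46.2 FPKM (-0.78, adjusted p = 0.141). No gene of 24 tested BCL6 cofactors and related BTB zinc-finger factors passed. Their median was 0.08 (0.04 to 0.12 with a library left out). A BCL6-like or STAT-like site, TTCNNNGAA, which reads the same on both strands, was in 3 of the 28 called promoters (Zfp36, Ctla2a and Ltb) and in 2582 of 27025 genes (9.55%). The promoter windows of Bcl6 held 1 and 3 such matches.

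Effector genes, by which IELs kill and signal, gave no call. None of 29 cytotoxic, 22 NK receptor, 16 inhibitory receptor and 34 cytokine receptor and STAT feedback genes passed limma, and their medians were -0.03, 0.01, -0.05 and -0.17. The granzyme gene Gzma, the most abundant of these, stood at 14675 and 12931 FPKM in littermates and at 18282 and 19581 FPKM in knockouts. Gzma had both knockouts above both littermates, with a difference of 0.46 (adjusted p = 0.914). Gzmb overlapped, at 4989 and 4675 against 5459 and 4089 FPKM (-0.03). Cd160, an inhibitory receptor of IELs, was at 301 and 290 against 254 and 180 FPKM (-0.46, adjusted p = 0.847). Pdcd1, the PD-1 gene, was at 9.39 and 9.72 against 5.33 and 3.63 FPKM (-0.96, adjusted p = 0.141), and Socs3, a feedback inhibitor of cytokine receptors, at 18.5 and 23.5 against 9.73 and 5.96 FPKM (-1.34, adjusted p = 0.0622). Both had lower values in both knockouts without passing. With a library left out, medians ran from -0.08 to 0.11 for cytotoxic genes and from -0.01 to 0.13 for NK receptor genes. They ran from -0.22 to 0.06 for inhibitory receptor genes and from -0.33 to -0.08 for cytokine receptor and feedback genes. Cell cycle genes had no call among 41 and a median of 0.19. In 20 of them both knockouts lay above both littermates and in 4 below, against 19% and 14% of all genes tested. Glycolysis (25 tested), cholesterol synthesis (26) and interferon-stimulated genes (36) had no call either, with medians of -0.15, -0.10 and 0.07. Leaving out a library gave medians of 0.09 to 0.24 for cell cycle and -0.39 to 0.03 for glycolysis genes. Those of cholesterol synthesis ran from -0.12 to -0.02 and those of interferon-stimulated genes from 0.04 to 0.09.

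The 3 genes that rose came from low levels. Irak3, which encodes IRAK-M, a brake on Toll-like receptor signalling (chr10:120141648-120202130, minus strand), stood at 1.41 and 1.75 FPKM in littermates and at 9.42 and 8.33 FPKM in knockouts. Its difference was 1.94 ± 0.19 (95% interval 1.51 to 2.36, adjusted p = 0.00302). It was the one call among 30 tested Toll-like receptor, IRAK and NF-κB feedback genes (median -0.11, and -0.20 to -0.04 with a library left out). Its recovered reads were 119 and 142 against 781 and 695, and edgeR on those reads with the same FPKM filter called it as well (log2 difference 2.47, adjusted p = 0.0125). Ly6d, a GPI-anchored surface protein, stood at 0.292 and 0.364 against 3.10 and 5.27 FPKM (1.93 ± 0.24, adjusted p = 0.00988). Arhgap31, a GTPase-activating protein for Rac and Cdc42, stood at 0.176 and 0.243 against 1.89 and 2.08 FPKM (1.30 ± 0.19, adjusted p = 0.028). Both were nearly silent in littermates and passed the 1 FPKM filter only through the knockouts, so their groups could not overlap. edgeR called Arhgap31 but not Ly6d, for which it gave an adjusted p of 0.0749. Over the 13324 genes with at least 20 reads and no FPKM filter, edgeR also called Epb41l4a (8 and 13 against 147 and 182 reads) and Akap6 (34 and 65 against 373 and 308 reads), a test added after the data were seen. Cd4 stood at 0.0863 and 0.179 against 1.76 and 1.08 FPKM (adjusted p = 0.117).

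Genes of another cell type fell as well. Paneth cells sit at the crypt base and secrete antimicrobial defensins and lysozyme, and T cells are not their known source. Of 19 tested Paneth genes, 7 fell and none rose, and the median was -0.93 (-0.96 to -0.71 with a library left out). Both knockouts lay below both littermates in 11 of the 19 and above both in 5, against 14% and 19% of all genes tested. Defa39 stood at 31.1 and 35.8 FPKM in littermates and at 4.14 and 3.42 FPKM in knockouts (-2.85 ± 0.18, adjusted p = 0.000528). Defa30 stood at 39.6 and 39.5 against 7.58 and 7.53 FPKM (-2.25 ± 0.16, adjusted p = 0.000579). Lyz1, the Paneth lysozyme, stood at 44.9 and 51.7 against 10.4 and 6.80 FPKM (-2.38, adjusted p = 0.00164). Within each group the libraries were alike, and the groups were far apart. Defa24 (124 and 115 against 28.6 and 33.4 FPKM), Defa38 (42.7 and 43.4 against 9.35 and 6.15 FPKM) and the lectin Itln1 (29.1 and 41.3 against 10.7 and 7.41 FPKM) fell too. So did Clps, the colipase gene, which is also on the pancreatic enzyme list, at 4.77 and 9.10 against 0.799 and 0.0721 FPKM, and, outside the list, the secreted lectin Reg4 at 2.47 and 1.99 against 0 and 0.388 FPKM. edgeR on recovered reads, with the same FPKM filter, called neither Clps nor Reg4 (adjusted p = 0.139 and 0.345). In one limma fit with the RFP libraries, 6 of the 7 Paneth calls were lost, with adjusted p from 0.161 for Defa39 to 0.297 for Defa24, and Clps kept its call.

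Other defensins went the opposite way without passing in the main fit. Defa22 was at 0.207 and 0.647 FPKM in littermates and at 2.96 and 2.21 FPKM in knockouts (1.34, adjusted p = 0.057), and Defa21 at 0.728 and 0.433 against 2.76 and 1.26 FPKM. In limma without the eBayes trend, Defa22 passed (adjusted p = 0.0464). Defa22 and Defa21 passed the 1 FPKM filter only through the knockouts, so their groups could not overlap. Defensin genes are near-identical copies, and reads can be split between them in counting, so single members are uncertain. Over the 23 listed Paneth genes in the table, the summed level was 357 and 371 FPKM in littermates and 117 and 117 in knockouts, a ratio of 0.322. Enterocyte genes did not share this: no gene of 24 tested passed, with a median of 0.11 (0.04 to 0.15 with a library left out). The sum over 37 genes was 291 and 317 against 333 and 294 FPKM, a ratio of 1.03 that turned below 1 without littermate 1 or knockout 1. Goblet, tuft and enteroendocrine genes summed to 53.6 and 68.9 against 93.0 and 71.5 FPKM, with no call among 9 tested. The part of carried-over RNA in the T cell results was not tested. Myeloid genes had no call among 13 tested, with a median of 0.57 (0.83 without knockout 1 and 0.16 without knockout 2). They stood out in knockout 2: S100a8, a neutrophil gene, was at 2.32, 5.99 and 4.86 FPKM in the other libraries and at 36.6 FPKM there. The myeloid sum over 25 genes was 144 and 165 against 200.1 and 314 FPKM. B and plasma cell genes summed to 40.2 to 43.4 FPKM in all 4 libraries, with no call among 4 tested.

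**Figure D4:**
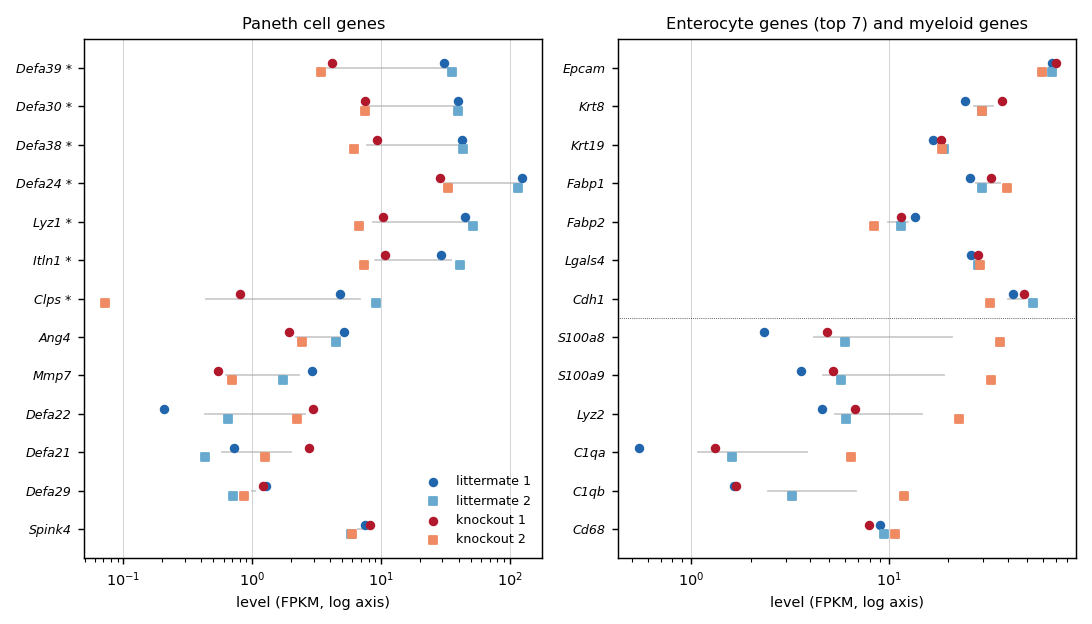
Level of Paneth cell genes (left) and of enterocyte and myeloid genes (right, parted by a dotted line) in each library (FPKM, log axis), with blue for littermates, red or orange for knockouts, grey lines joining the group means and * marking called genes. Defa39, Lyz1 and the other called Paneth genes separate the groups, enterocyte genes overlap or lie close, and knockout 2 is the highest library for S100a8, S100a9 and C1qa.

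The called genes were then read in the other 2 deletions, which share no library with this one. Levels there are size-factor-scaled reads, so only differences within an experiment were compared, by limma over the 8 libraries of 2 experiments. Of 9315 genes, the Bcl6 effect differed from the Prdm1 effect in 326 (3.5%), and it differed from the Tcf7 effect in 45 of 9370 (0.48%). Among the 37 genes that fell without Bcl6, 34 were tested in each comparison. The Bcl6 effect was lower than the Prdm1 effect in 26 of them, against 2.06% of all genes lower and 1.44% higher. It was lower than the Tcf7 effect in 25, against 0.406% of all genes lower and 0.0747% higher. Over all genes the differences from the Tcf7 effect, 38 lower and 7 higher, came to 12 and 2 without either littermate library, 800 and 697 without knockout 1, 75 and 27 without knockout 2, and 8 and 0 with the replicate block. These genes were chosen for their Bcl6 effect, so the shares are a description. In the Prdm1 knockout itself, 8 of the 34 rose and none fell, against 4.29% higher and 2.54% lower of all genes tested there. In the Tcf7 knockout 8 rose and 7 fell, against 1.49% and 1.23%.

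Hspa1b stood at 32947 and 38782 in Prdm1 littermates and at 77979 and 58555 in Prdm1 knockouts (0.92, adjusted p = 0.0387). That is the opposite direction to its fall without Bcl6, and the difference of effects was -4.02 ± 0.29 (adjusted p = 0.000208). Atf3 stood at 367 and 411 in Prdm1 littermates and at 2050.0 and 1172 in Prdm1 knockouts (1.99), a difference of effects of -3.85. Id3 stood at 271 and 534 against 1387 and 1070 (1.68), a difference of -3.45. In both genes the Prdm1 knockouts lay above the Prdm1 littermates, the opposite direction to their fall without Bcl6. Irak3 showed the reverse, at 136 and 75.9 in Prdm1 littermates and at 20.1 and 6.24 in Prdm1 knockouts (-3.05, adjusted p = 0.038), and its difference of effects was 4.99 ± 0.65 (adjusted p = 0.00246). In the Prdm1 experiment Irak3 passed the filter, a signal of at least 50 in 2 libraries, only through the littermates, so its groups there could not overlap. Gzma and Gzmb, which fell by 4.68 and 3.77 in the Prdm1 knockout, differed between the deletions by 5.13 and 3.74. Prdm1 itself, the gene deleted there, is no comparison. Against Tcf7 deletion, Hspa1b (-0.40 there) differed by -2.71 and Id3 (0.08 there) by -1.85, whereas Ltb fell in both, by 0.64 in the Tcf7 knockout, and the difference of -0.37 did not pass (adjusted p = 0.783). The Paneth genes varied between the libraries of 1 group in the Prdm1 experiment: Lyz1 stood at 663 and 1488 in littermates and at 1355 and 6284 in knockouts.

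In the reporter sort, RFP reports Bcl6 expression, and the sort also used CD160. Of 34 tested genes that fell without Bcl6, 24 were higher and 2 lower in RFP+ cells, against 16.4% higher and 21.6% lower of all 9717 genes tested there. Id3 stood at 1.24 FPKM on average in RFP- and 27.2 FPKM in RFP+ cells (3.65), and Ltb at 19.5 and 140.0 FPKM (2.82). Slc2a6 averaged 0.495 and 5.09 FPKM (2.03). The 2 that were lower in RFP+ cells were Hopx (36.4 against 17.3 FPKM, -1.03) and Kcnk5 (7.50 against 0.861 FPKM, -2.16). Of the genes that rose without Bcl6, Irak3 (1.48 against 0.0170 FPKM) and Arhgap31 (4.00 against 2.83 FPKM) were lower in RFP+ cells. Irak3 passed the 1 FPKM filter of the sort only through RFP- cells, so its groups could not overlap. Called Paneth genes such as Defa30 (28.3 against 6.73 FPKM, adjusted p = 0.0867) did not pass in the sort.

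**Figure D5:**
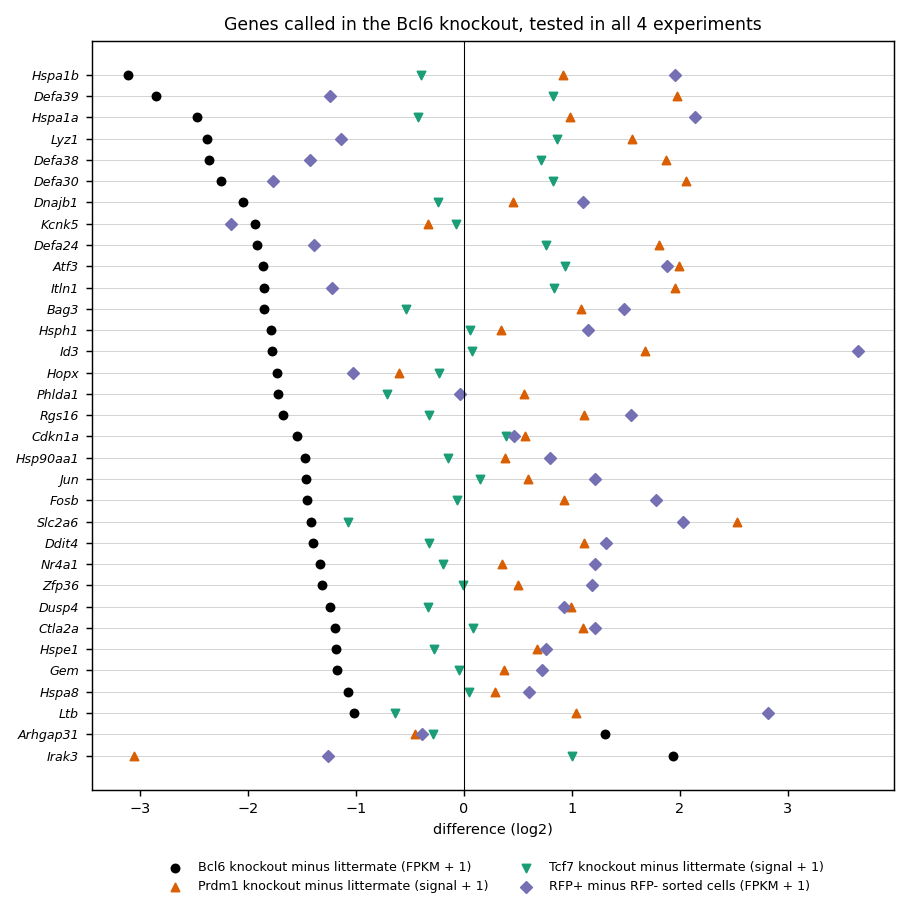
Difference (log2, x axis) of 33 genes called in the Bcl6 knockout and tested in all 4 experiments, with black circles for Bcl6 knockout minus littermate, orange triangles for Prdm1, green triangles for Tcf7 and purple diamonds for RFP+ minus RFP- cells. Most genes lie left of 0 in the Bcl6 knockout and right of 0 in RFP+ cells, and Irak3 and Arhgap31 lie on the opposite sides. Irak3 passed the filter of the Prdm1 experiment only through the littermates and that of the sort only through RFP- cells.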

How the data were processed

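Bulk RNA-seq libraries were made from total RNA extracted with MagZol, per the labels' protocols, by either of 2 providers that the labels do not assign to libraries. Tools in the submitters' processing notes are RSEM, DESeq2, featureCounts, Subread, Bowtie2 and Trim Galore (0.4.4), with the mm10 build and no stated role. The authors deposited FPKM per gene for the Bcl6 and RFP experiments. For the Prdm1 and Tcf7 experiments the deposited files are named FPKM, but their values behave as a signal of reads divided by a size factor, so the planned FPKM filter was replaced there by a signal of at least 50 in 2 libraries. FPKM times GENCODE vM21 exon length came in whole read steps in 97.0 to 97.3% of low values (tolerance 0.02), and reads were recovered in all 4 Bcl6 libraries for 13324 genes.

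Log2(value + 1) was tested with limma 3.58.1 (eBayes with trend, two-sided) in R 4.3.3, each experiment alone and without covariates, with Benjamini-Hochberg adjustment at 0.05. Differences between deletions were limma interactions over 8 libraries. The recovered reads were tested with edgeR 4.0.16 (quasi-likelihood) as an alternative chosen after seeing the data. Both fits were tested on simulated data. Alternatives covered the pseudocount, filter, scaling, eBayes settings, the replicate block and each library left out. Gene symbols were matched to GENCODE vM21 (98.8% found), and promoters are from RefSeq on GRCm38.p6.

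Named genes are 7 fixed genes (Cd8a, Gzmb, Gzma, Cd160 and the 3 deleted genes), every called gene (1 is not reported here), and members of each list by smallest p (up to 6). Hsp90ab1, Hspd1, Hspa5, Hsp90b1, Hspa9, Hsf1, Fos, Junb, Dusp5, Bcl2, Itgae, Cd3e, Cd8b1, Defa21, Defa22, Epb41l4a and Akap6 were named after their values were seen. The comparison, lists and tests were chosen with earlier results of these data known.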

Additional observations from a re-analysis of the deposited data

Results flagged for a closer look

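Every result here was singled out because the effect of deleting Bcl6 differed from that of deleting Prdm1 or Tcf7 in a limma interaction over the 8 libraries of both experiments, at an adjusted p under 0.05. Values are the Bcl6 effect minus the other effect, in log2 units, with a pseudocount of 1 set on FPKM in one experiment and on scaled reads in the other. Genes were singled out among those called in the Bcl6 knockout and the 7 fixed genes, so a difference in the direction of the Bcl6 call is in part fixed by that choice.

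Against the Prdm1 effect, 31 of the genes reported here differed. Chaperone genes differed by -4.02 (Hspa1b), -3.46 (Hspa1a), -2.50 (Dnajb1), -2.13 (Hsph1), -2.93 (Bag3), -1.85 (Hsp90aa1), -1.85 (Hspe1) and -1.36 (Hspa8). Paneth cell genes differed by -4.82 (Defa39), -4.23 (Defa38) and -3.93 (Lyz1). Immediate-early, TCR-induced and stress genes differed by -2.79 (Rgs16), -3.85 (Atf3), -2.38 (Fosb), -2.06 (Jun), -2.50 (Ddit4), -1.55 (Gem) and -1.82 (Zfp36). Genes that rose without Bcl6 differed by 4.99 (Irak3) and 1.75 (Arhgap31). Irak3 passed the filter of the Prdm1 experiment only through the littermates. The fixed genes differed by 3.85 (Prdm1), -2.37 (Tcf7), 5.13 (Gzma) and 3.74 (Gzmb). Prdm1 is the gene deleted in the other experiment, so its difference is fixed by the design. Other genes that fell without Bcl6 differed by -3.45 (Id3), -1.14 (Hopx), -2.28 (Phlda1), -2.22 (Rgcc), -3.95 (Slc2a6), -2.05 (Ltb) and -2.30 (Ctla2a).

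Against the Tcf7 effect, 26 of them differed. Over all genes these calls fell from 38 lower and 7 higher to 12 and 2 without either Bcl6 littermate library and to 8 and 0 with the replicate block. Chaperone genes differed by -2.71 (Hspa1b), -2.05 (Hspa1a), -1.80 (Dnajb1), -1.84 (Hsph1), -1.32 (Bag3), -1.32 (Hsp90aa1) and -1.11 (Hspa8). Paneth cell genes differed by -3.68 (Defa39), -3.08 (Defa30), -2.68 (Defa24), -3.07 (Defa38), -3.24 (Lyz1) and -2.69 (Itln1). Reg4, outside the Paneth list, differed by -2.99. Immediate-early, TCR-induced and stress genes differed by -1.35 (Rgs16), -2.80 (Atf3), -1.39 (Fosb), -1.93 (Cdkn1a), -1.14 (Nr4a1), -1.61 (Jun), -1.13 (Gem) and -1.31 (Zfp36). Genes that rose without Bcl6 differed by 1.59 (Arhgap31). Other genes that fell without Bcl6 differed by -1.85 (Id3), -1.50 (Hopx) and -1.86 (Kcnk5).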

How the results depend on the processing

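None of the 40 called genes changed direction in those of the 17 alternative fits that tested them. Most of these fits could not turn a direction. The groups were apart in all 40, so leaving out a library or changing the pseudocount keeps the sign. The eBayes and block settings leave the difference unchanged. Of the 40, 23 were called under all 9 settings of pseudocount, filter, scaling and eBayes that tested them. Genes called higher numbered 3 in the main comparison, 1 with a mean FPKM of at least 5 or with centring on the median gene, 27 in one fit with the RFP libraries and 4 to 720 with a library left out. Genes called lower numbered 37, with 24 without a filter or with edgeR on recovered reads, 76 in one fit with the RFP libraries and 36 to 850 with a library left out. With the replicate block, 14 genes were called higher and 64 lower, among them all 40. The adjusted p of Hspa1b was 2.9e-28 there, against 0.000528 in the main fit, at the same difference. These calls are therefore no independent check of the 40. Replicate numbers do not pair the samples: the replicate difference correlated at -0.459 between groups over 9573 genes, and the crossed block gave 180 and 272 calls. Against the Prdm1 effect, 134 genes differed upward (64 to 468 with a Bcl6 library left out) and 192 downward (78 to 387). Against the Tcf7 effect, 7 differed upward (2 to 697 with a library left out, 3 with a pseudocount of 0.1) and 38 downward (12 to 800), and the replicate block left 0 and 8. The heat-shock sum ratio was 0.470 as a share of all FPKM and 0.477 to 0.487 with a library left out, the Paneth ratio 0.315 to 0.328 and the enterocyte ratio 0.967 to 1.09, with 0.988 without littermate 1 and 0.967 without knockout 1. edgeR on recovered Prdm1 reads called 527 genes higher and 245 lower, against 471 and 279 by limma. The cause of these shifts was not tested.

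Directions turned in 9 genes with small differences and no call. With a library left out, values ran from -0.178 to 0.0745 for Cd8a, -0.0915 to 0.117 for Hspa5, -0.0173 to 0.127 for Cd3e, -0.240 to 0.177 for Gzmb and -0.146 to 0.00643 for Hspa9. They ran from -0.247 to 0.0784 for Cd8b1, -0.413 to 0.137 for Hsf1, -0.0167 to 0.259 for Hsp90b1 and -0.352 to 0.146 for Itgae. Quantile scaling turned Cd8a to 0.0533, and rescaling, centring and edgeR turned Hspa5 to -0.0240, -0.000116 and -0.00538. Depth limits genes under 1 FPKM such as Bcl6, read by 83 to 119 reads a library.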
